A study of Danio rerio with 5 samples.

Results

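Antioxidant enzymes were described in single runx1+23:mCherry cells that were sorted from zebrafish embryos at 3 dpf and sequenced by SORT-seq. The members were taken by gene symbol: gpx1a, GPX4 (with gpx4a and gpx4b), PRDX1, PRDX2, CAT, SOD1, SOD2 and TXN, in any case. The list of symbols was chosen with earlier results of these data known. These symbols gave 8 of the 23628 gene IDs in the tables. Both PRDX1 (ENSDARG00000025350) and prdx1 (ENSDARG00000058734) carry the same symbol, and which peroxiredoxin paralog each ID stands for could not be settled from the names, so the IDs are kept apart here. CAT (ENSDARG00000104702) was not analysed here, and no ID was found under the symbols PRDX2 or gpx4b in the name table used.

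SORT-seq places 1 cell in each well of a 384-well plate and counts transcripts by molecular barcodes. There were 5 plates with 1920 wells, and all plates used the same 384 well numbers. Every embryo carried the runx1+23:mCherry transgene, whose enhancer drives mCherry in HSPCs, and had been injected with either a standard control (std) morpholino or an irf8 morpholino, which is used to block the formation of embryonic macrophages. On each plate wells 1 to 188 held cells of standard controls and wells 189 to 384 cells of irf8 morphants, so that morpholino and well position cannot be told apart. The embryos were the same age in both groups, and whether the plates came from separate clutches is not known, so the p-values measure the spread between plates, which may be technical.

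Only wells with 1000 or more gene transcripts entered the comparisons. These were 467 of the 940 wells with cells of standard controls and 466 of the 980 with cells of irf8 morphants, and the sums per plate and morpholino held 91151 to 2078384 transcripts. Although the samples were labelled HSPCs, 571 of the 933 kept wells (61.2%) were globin-rich, meaning that hemoglobin genes took at least 10% of their gene transcripts. A further 91 wells (9.75%) were MYB-positive, with at least 1 transcript of MYB, a transcription factor of blood stem and progenitor cells, and less hemoglobin than that. The remaining 271 wells are called other wells. No member was used to set these classes. The list of further erythroid markers took a median of 2.69% of the transcripts of globin-rich wells, 0.141% of MYB-positive wells and 0.0583% of other wells, and the HSPC list took 0.0671%, 0.38% and 0.273%. MYB is itself in the HSPC list, so part of the difference between MYB-positive and other wells is fixed by the class rule. Globin-rich wells came from plates 1, 2 and 4, while plate 3 held 0 and plate 5 held 2, so classes were compared on plates 1, 2 and 4. Other wells were mixed: the muscle list took 1.01% to 6.03% of their summed transcripts by plate, against 0.109% to 0.414% in globin-rich wells. The medians over wells were closer, 0.227% in other and 0.139% in globin-rich wells, so the typical other well was not rich in muscle RNA. The macrophage list took at most 0.0116% of the summed transcripts by plate in every class. IRF8 itself gave 4 transcripts in 3 standard control wells and 12 transcripts in 7 irf8 wells, too few to show what the morpholino did, which blocks a transcript's use and need not lower its count.

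Antioxidant enzymes remove reactive oxygen species in steps. Superoxide dismutases turn superoxide into hydrogen peroxide, SOD1 in the cytosol and SOD2 in mitochondria. Hydrogen peroxide is then reduced to water by catalase, by glutathione peroxidases such as gpx1a, which draw on glutathione, and by peroxiredoxins, which are recharged by thioredoxin (TXN). GPX4 reduces lipid peroxides in membranes. Red cells depend on these enzymes because hemoglobin that binds oxygen also releases superoxide, and mammalian red cells are rich in peroxiredoxin, catalase and glutathione peroxidase.

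The first question was how the enzymes were distributed between globin-rich, MYB-positive and other wells. Levels are given as CPM, a gene's transcripts per 1000000 gene transcripts of a plate's summed wells. Fold changes come from edgeR's quasi-likelihood test on these sums with the plate as a block and TMM scaling, which evens out the room that hemoglobin takes in the total. For that reason the fitted fold changes differ from plain ratios of CPM: the plain log2 ratio minus the fitted value had a median over genes of -0.50 for globin-rich against other wells, -0.80 for globin-rich against MYB-positive wells and 0.30 for MYB-positive against other wells.

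PRDX1, gpx1a, gpx4a and SOD1 rose in globin-rich against other wells, TXN rose in MYB-positive against other wells, and the remaining members passed the test in neither comparison. In globin-rich against other wells 4 of the 8 members were called higher and 0 lower at an adjusted p of 0.05, where 13.6% of all genes tested were called (7.37% higher and 6.19% lower). The median over the members was 0.99 on the log2 scale, and over all genes tested -0.19. Since the members were chosen with earlier results of these data known, such shares and medians are descriptions, here and below. In MYB-positive against other wells 1 of 8 members was called (higher), against 7.78% of all genes (3.42% higher and 4.36% lower). In globin-rich against MYB-positive wells 3 members were called higher and 1 lower, against 22.9% of all genes (10.0% higher and 12.9% lower).

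**Figure D1:**
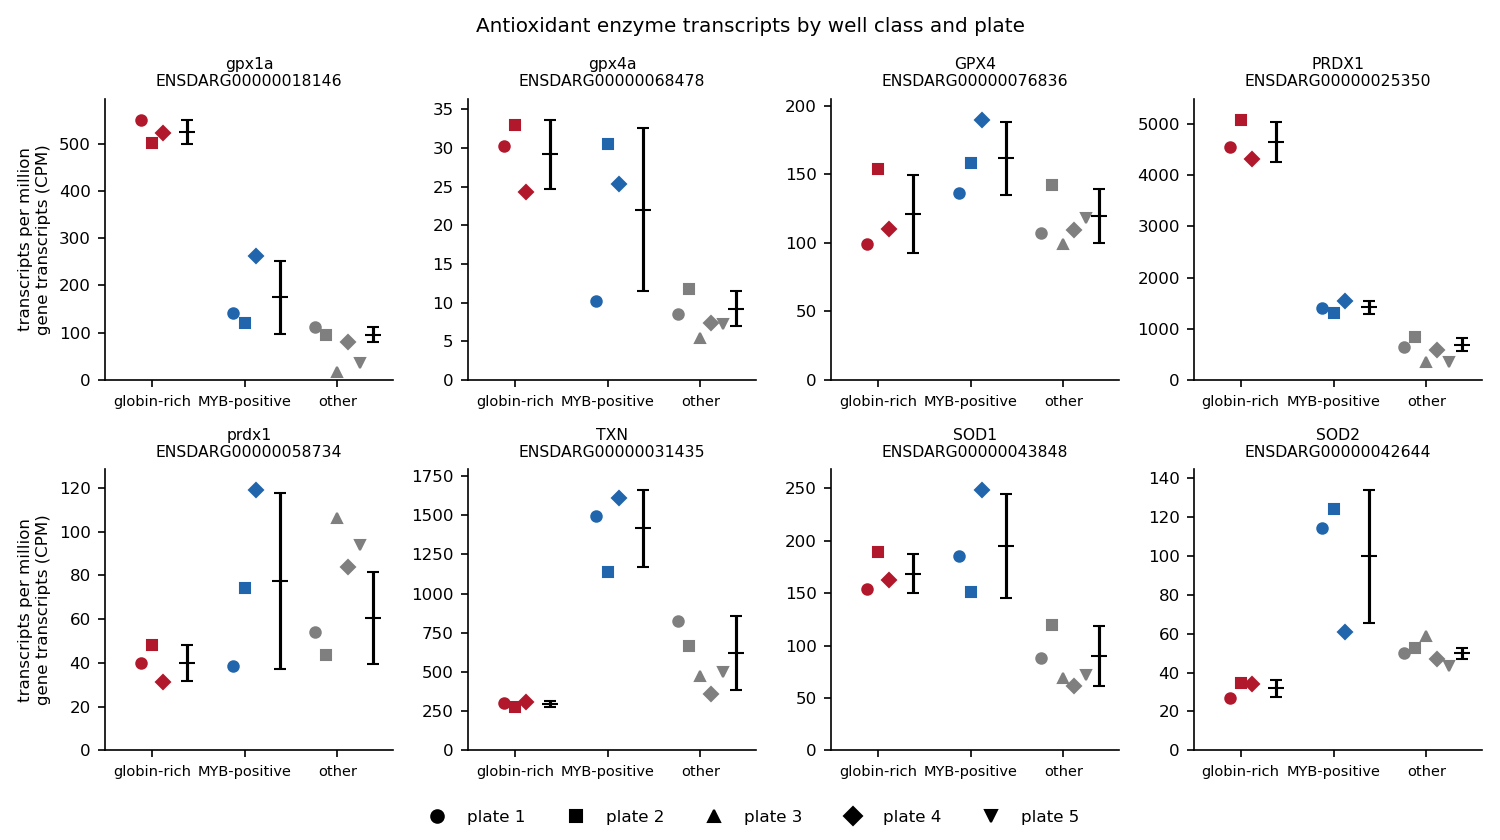
Level in CPM (linear axis from 0) of each member in globin-rich, MYB-positive and other wells, 1 point per plate; bars show the mean ± SD of plates 1, 2 and 4, and points of plates 3 and 5 are shown for other wells only. With the morpholinos pooled, PRDX1 and gpx1a lie highest in globin-rich wells on every plate, and TXN lies highest in MYB-positive wells.

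PRDX1, a thiol peroxidase that clears hydrogen peroxide, had 4546, 5084 and 4310 CPM in the globin-rich wells of plates 1, 2 and 4. In MYB-positive wells it had 1397, 1300 and 1549 CPM, and in other wells 643, 831 and 582 CPM. The classes did not overlap, and the order was the same on each of the 3 plates. The means were 4647 ± 397, 1415 ± 126 and 685 ± 130 CPM (SD, n = 3). The level in globin-rich wells was 9.72-fold that in other wells (log2 fold change 3.28, SE 0.24, edgeR adjusted p = 0.000235) and 5.73-fold that in MYB-positive wells (2.52, SE 0.23, edgeR adjusted p = 0.000273). MYB-positive and other wells, the neighbours in this order, did not differ past the threshold (0.76, SE 0.22, edgeR adjusted p = 0.0635), although 6 of 17 alternatives called PRDX1 higher in MYB-positive wells (0.67 to 0.87). After each well was thinned to 1000 transcripts, 97.3% to 99.0% of globin-rich wells still had a PRDX1 transcript, against 52.2% to 77.8% of MYB-positive wells and 43.9% to 48.8% of other wells on these plates.

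In the other wells of plates 3 and 5, which held almost no globin-rich wells, PRDX1 had 344 and 345 CPM, below all 3 remaining plates. Hemoglobin was lower there too: it took 0.016% to 0.141% of the transcripts of other wells on plates 3 and 5 and 0.76% to 3.553% on plates 1, 2 and 4. The part of this hemoglobin RNA in the PRDX1 level of other wells was not tested.

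gpx1a, a glutathione peroxidase, had 551, 501 and 523 CPM in globin-rich wells, 141, 120 and 263 CPM in MYB-positive wells, and 111, 95.1 and 79.7 CPM in other wells. With the morpholinos pooled, globin-rich wells were apart from both remaining classes on every plate. The means were 525 ± 24.8, 175 ± 77.4 and 95.4 ± 15.9 CPM (SD, n = 3), and on plates 3 and 5 the other wells had 17.7 and 36.2 CPM. The level was 7.97-fold higher in globin-rich than in other wells (log2 fold change 2.99, SE 0.32, edgeR adjusted p = 0.000725) and 5.50-fold higher than in MYB-positive wells (2.46, SE 0.32, edgeR adjusted p = 0.00129; 3.09 without plate 4). For MYB-positive against other wells the log2 fold change was 0.54 (SE 0.31, edgeR adjusted p = 0.264). By morpholino, the mean of globin-rich wells was 1161 CPM in standard controls and 226 CPM in irf8 morphants. In irf8 wells of plate 4 gpx1a had 366 CPM in MYB-positive wells, above 259 CPM in globin-rich wells. There 1 well gave 28 of the 35 MYB-positive transcripts. With hemoglobin left out of the total the order of these 2 levels was reversed, at 368.3 in MYB-positive and 407.5 in globin-rich wells. By CPM globin-rich wells were highest in standard controls of each plate and in irf8 wells of plates 1 and 2.

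Of the GPX4 genes, whose products act on lipid peroxides, gpx4a had few transcripts, 183 in all kept wells, with 30.3, 33.0 and 24.2 CPM in globin-rich wells, 10.2, 30.5 and 25.3 CPM in MYB-positive wells and 8.56, 11.7 and 7.33 CPM in other wells. By CPM globin-rich and other wells did not overlap, while MYB-positive wells overlapped with both. With hemoglobin left out of the total, globin-rich wells (51.43, 59.28 and 39.15) lay above MYB-positive wells (10.32, 31.05 and 25.44). gpx4a was 4.53-fold higher in globin-rich than in other wells (log2 fold change 2.18, SE 0.41, edgeR adjusted p = 0.00874). It was 2.42-fold higher than in MYB-positive wells (1.27, SE 0.39, edgeR adjusted p = 0.0454), although with hemoglobin in the total its CPM was higher on 2 of 3 plates only. The latter call was lost in 9 of 15 alternatives (highest edgeR adjusted p 0.261). GPX4 (ENSDARG00000076836) had 99.1, 154 and 110 CPM in globin-rich wells, 137, 158 and 190 CPM in MYB-positive wells and 107, 142 and 109 CPM in other wells. With the morpholinos pooled its classes overlapped by CPM, and no comparison of them passed (log2 fold change 0.53 for globin-rich against other wells, SE 0.28, edgeR adjusted p = 0.248). With hemoglobin left out of the total, pooled globin-rich wells (168.2, 276.1 and 178.2) lay above other wells (109.3, 146.9 and 112.5). In standard controls globin-rich wells had 63.1, 47.4 and 45.0 CPM, below other wells (107, 198 and 107 CPM). With hemoglobin left out of the total these overlapped (110.3, 99.6 and 77.3 against 108.8, 204.0 and 108.0). In irf8 morphants globin-rich wells had 126, 190.5 and 140 CPM, above other wells (107, 104 and 109 CPM). They were also above without hemoglobin in the total (209.5, 326.3 and 219.6 against 110.1, 108.1 and 113.1). These orders within a morpholino were not tested.

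TXN, the thioredoxin that recharges peroxiredoxins, had the opposite order to PRDX1 between the blood classes. Its levels were 1496, 1140 and 1607 CPM in MYB-positive wells, 827, 665 and 363 CPM in other wells and 302, 275 and 309 CPM in globin-rich wells. By CPM the 3 classes did not overlap. The means were 1414 ± 244, 618 ± 236 and 295 ± 17.7 CPM (SD, n = 3). With hemoglobin left out of the total, other wells had 845, 687 and 374 and globin-rich wells 512, 495 and 499. On that scale globin-rich and other wells overlapped, while MYB-positive wells stayed highest (1516, 1161 and 1616). TXN was 1.95-fold higher in MYB-positive than in other wells (log2 fold change 0.96, SE 0.25, edgeR adjusted p = 0.0478) and 2.75-fold lower in globin-rich than in MYB-positive wells (-1.46, SE 0.25, edgeR adjusted p = 0.00428). Globin-rich and other wells did not differ past the threshold (-0.50, SE 0.24, edgeR adjusted p = 0.215). MYB-positive wells, which need 1 MYB transcript to be so classed, had a median of 12175 transcripts against 5435 in other and 5224 in globin-rich wells. With every well thinned to 1000 transcripts the TXN value was 0.34 for MYB-positive against other wells (edgeR adjusted p = 0.306) and -0.74 for globin-rich against MYB-positive wells (edgeR adjusted p = 0.013). The call in MYB-positive against other wells was near the threshold and was lost in 8 of 17 alternatives, including without any 1 of the 3 plates (edgeR adjusted p 0.102 to 0.25). The call against MYB-positive wells was lost without plate 1 (edgeR adjusted p = 0.125). The 3 neutrophil markers, all detected, took 0.214% to 1.445% of the transcripts of MYB-positive sums and at most 0.0104% of those of globin-rich sums. They took up to 0.424% of the sums of other wells. Their median share over MYB-positive wells was 0%, so these sums rest on a part of the wells. The part of neutrophil markers in the TXN level was not tested.

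SOD1 had 154, 189 and 162 CPM in globin-rich wells, 186, 151 and 248 CPM in MYB-positive wells and 88.5, 120 and 61.8 CPM in other wells. By CPM other wells were lowest on each plate, and the first 2 classes overlapped. With hemoglobin left out of the total, globin-rich wells (261.4, 340.5 and 262.4) lay above MYB-positive wells (187.9, 153.4 and 249.4). SOD1 was 2.73-fold higher in globin-rich than in other wells (log2 fold change 1.45, SE 0.31, edgeR adjusted p = 0.0159). MYB-positive wells did not differ past the threshold from other wells (0.86, SE 0.31, edgeR adjusted p = 0.107) or from globin-rich wells (0.59 for globin-rich against MYB-positive, SE 0.31, edgeR adjusted p = 0.209). The latter was called in 3 of 17 alternatives: with wells thinned to 1000 transcripts (1.82, edgeR adjusted p = 0.000897), with globin-rich wells counted from 20% hemoglobin (1.24, edgeR adjusted p = 0.00725) and with sums per plate, morpholino and class (0.92, edgeR adjusted p = 0.0161). The calls of SOD1 and gpx4a against other wells were lost without plate 1 (edgeR adjusted p = 0.12 and 0.0635) and without plate 2 (0.0769 and 0.12), whereas PRDX1 and gpx1a passed in all 17 alternatives tried. Thinned to 1000 transcripts a well, the log2 fold changes against other wells were 2.70 for SOD1, 4.002 for PRDX1 and 3.97 for gpx1a, and those against MYB-positive wells 3.66 for PRDX1 and 3.89 for gpx1a.

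SOD2 had 27.0, 34.8 and 33.9 CPM in globin-rich wells, 114, 124 and 60.7 CPM in MYB-positive wells and 50.0, 52.8 and 47.2 CPM in other wells. By CPM the classes did not overlap, but none of the 3 comparisons passed (log2 fold change -0.82 for globin-rich against MYB-positive wells, SE 0.32, edgeR adjusted p = 0.101). With hemoglobin left out of the total, SOD2 had 45.9, 62.7 and 54.8 in globin-rich wells, which overlapped with both remaining classes. MYB-positive wells then had 115.6, 126.3 and 61.0, and other wells 51.0, 54.6 and 48.6. prdx1 had 40.1, 48.0 and 31.5 CPM in globin-rich wells, 38.7, 74.4 and 119 CPM in MYB-positive wells and 54.3, 43.5 and 83.9 CPM in other wells. With the morpholinos pooled its classes overlapped, and the fitted log2 fold changes were -0.03, -0.04 and 0.02 with SEs of 0.44 to 0.45. The ID named PRDX1 was instead called higher in globin-rich wells against both remaining classes. In standard controls alone prdx1 had 34.4, 0 and 5.87 CPM in globin-rich wells and 60.5, 43.7 and 152 CPM in other wells. It was lower in globin-rich wells on each plate, but their sums held 18, 0 and 3 transcripts. In irf8 wells it had 44.4, 64.8 and 43.0 CPM against 44.4, 43.3 and 74.9 CPM. The classes were not tested within a morpholino.

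**Figure D2:**
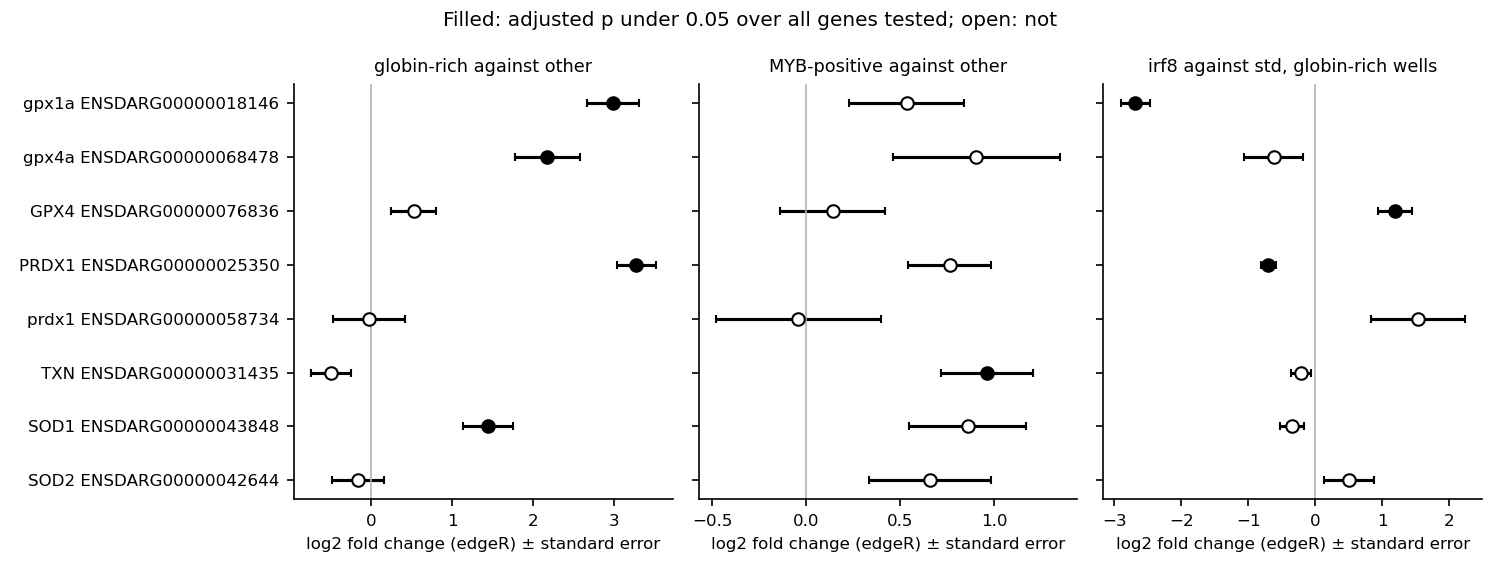
Log2 fold changes (edgeR) ± standard error of the 8 members for globin-rich against other wells, MYB-positive against other wells, and irf8 against standard control in globin-rich wells; filled points passed an adjusted p of 0.05 over all genes tested, and the horizontal scales differ between panels. PRDX1 and gpx1a have the largest values in the first panel, and gpx1a is lowest in the third, at -2.68.

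The class boundary of 10% hemoglobin had 21 wells between 5% and 10% and 39 between 10% and 20%, so the levels were also read over 5 bins of hemoglobin share with the wells of all plates pooled. In wells under 1%, of 1% to 10%, of 10% to 30%, of 30% to 50% and of 50% or more (274, 88, 72, 170 and 329 wells), PRDX1 had 767, 780, 2270, 5421 and 5665 CPM. gpx1a had 91.0, 88.0, 222, 457 and 819 CPM in these bins. By plate, both were lower in the bin of 1% to 10% than under 1% on plates 1, 2 and 4 (PRDX1 877, 944 and 559 CPM against 989, 1089 and 1215 CPM), and both were higher at 10% to 30% and again at 30% to 50%. At 50% or more gpx1a was higher again on each of these plates, whereas PRDX1 had 5275 CPM on plate 4 against 5679 CPM at 30% to 50%. These bins pool the morpholinos, whose numbers of wells shifted between bins. On plate 1 there were 26 irf8 and 10 standard control wells at 30% to 50%, and 47 and 73 at 50% or more. In standard controls of plate 1 gpx1a had 1641 CPM at 30% to 50% and 1264 CPM at 50% or more. It was higher at 50% or more in standard controls of plates 2 and 4 and in irf8 wells of each of these plates. TXN had 924, 478, 444, 302 and 179 CPM. Since hemoglobin takes part of the total, the same levels were computed as CPM with hemoglobin genes left out of the total: TXN then had 927, 499, 542, 515 and 422, and PRDX1 had 769, 815, 2767, 9243 and 13330. The plates did not share 1 course of TXN on this scale: from 1% to 10% over 10% to 30% to 30% to 50% it had 836, 530 and 602 on plate 1 and 260, 574 and 468 on plate 4. SOD1 had 128, 90.7, 143, 356 and 399 on this scale. These are descriptions of pooled wells, which are not replicates.

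Other redox genes, from a list of enzymes and regulators around these members, moved in both directions. The files held 63 of the list genes, and 43 of them were tested between the classes. In globin-rich against other wells 6 rose and 8 fell, against 7.37% and 6.19% of all genes tested. The list median there was -0.39 on the log2 scale (all genes -0.19). In MYB-positive against other wells 0 rose and 4 fell, against 3.42% and 4.36% of all genes (median -0.20, all genes -0.10). In globin-rich against MYB-positive wells 11 rose and 8 fell, against 10.0% and 12.9% of all genes (median 0.13, all genes -0.01).

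The genes that rose in globin-rich against other wells included fth1a, a ferritin heavy chain that stores iron, with 15550, 17890 and 15280 CPM against 1895, 2397 and 1726 CPM (log2 fold change 3.53, SE 0.22, edgeR adjusted p = 0.000235). GLRX5, a mitochondrial glutaredoxin of iron-sulfur cluster assembly that zebrafish red cells need for heme synthesis, rose as well (2.80, SE 0.31, edgeR adjusted p = 0.000852). PRDX3, the mitochondrial peroxiredoxin, had 282, 365 and 299 CPM in globin-rich wells and 130, 169 and 132 CPM in other wells (1.65, SE 0.28, edgeR adjusted p = 0.00562). keap1a, which holds back the antioxidant regulator NRF2, rose by 3.05 (SE 0.52, edgeR adjusted p = 0.00612). PGD, an enzyme of the pentose phosphate pathway that supplies NADPH, fell by 1.89 on the log2 scale (SE 0.32, edgeR adjusted p = 0.00612). NCF1 and cybb, subunits of the phagocyte NADPH oxidase that makes superoxide, were close to 0 in globin-rich wells (at most 2.83 and 1.88 CPM) and had at least 54.2 and 16.4 CPM in other wells (edgeR adjusted p = 0.00345 and 0.00885). A TXNIP gene (ENSDARG00000070000), named for the inhibitor of thioredoxin, had at most 2.42 CPM in globin-rich wells and 40.1 to 84.2 CPM in other wells (edgeR adjusted p = 0.00365).

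In MYB-positive against other wells the 4 genes that fell were selenop, which carries selenium (log2 fold change -3.54, SE 0.53, edgeR adjusted p = 0.0144), NQO1, a quinone reductase (-4.24, SE 0.75, edgeR adjusted p = 0.0199), NFE2L2, which encodes NRF2 (-1.14, SE 0.29, edgeR adjusted p = 0.0476), and the same TXNIP gene (-2.38, SE 0.61, edgeR adjusted p = 0.0485). Between the blood classes foxo3b and foxo3a, transcription factors of the oxidative stress response, rose in globin-rich against MYB-positive wells (1.87 and 2.58, SE 0.28 and 0.47, edgeR adjusted p = 0.00256 and 0.00615). PRDX4, the peroxiredoxin of the endoplasmic reticulum, had 22.1, 16.0 and 21.2 CPM in globin-rich wells and 114, 101.1 and 106 CPM in MYB-positive wells (-1.64, SE 0.26, edgeR adjusted p = 0.00314). fth1a, keap1a and GLRX5 were higher in globin-rich than in MYB-positive wells as well (2.98, 3.82 and 1.77, edgeR adjusted p = 0.000107, 0.00326 and 0.00402), and PGD was lower (-2.27, edgeR adjusted p = 0.0021).

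Over the 11 sums per plate and class, the gene whose log2(CPM + 1) was most like that of PRDX1 was fth1a (Pearson r = 0.996). Among those most like gpx1a were gata1a and klf1, transcription factors of red cell formation (r = 0.976 and 0.964). Those most like TXN were SNU13, RRP15 and ncl (r = 0.987, 0.986 and 0.986), all with roles in making ribosomes or spliceosomes. For the remaining 5 members the highest r was 0.868 for prdx1, 0.903 for GPX4, 0.95 for gpx4a, 0.957 for SOD2 and 0.966 for SOD1. The sums share plates and the same contrast of globin-rich with other wells, so these values are descriptions.

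The second question was whether the members differed between irf8 morphants and standard controls. Over all kept wells of the 5 plates 0 of the 8 members were called, and 1 of 7141 genes tested was (0.0140%), while 671 genes had an unadjusted p under 0.05 and DESeq2 called 216. gpx1a had 528, 626, 11.8, 703 and 71.4 CPM in the standard control wells of plates 1 to 5 and 155, 113, 20.8, 190 and 76.8 CPM in irf8 wells. It was lower in irf8 wells of plates 1, 2 and 4 and slightly higher on plates 3 and 5 (log2 fold change -1.29, SE 0.48, edgeR adjusted p = 0.481). The remaining 7 members had log2 fold changes of -0.50 (TXN) to 0.28 (SOD2). gpx1a was called in 2 alternatives, without the gene filter (-1.26, edgeR adjusted p = 0.00459) and with wells thinned (-1.59, edgeR adjusted p = 0.0393). A single well gave 48.6% of all standard control transcripts of plate 3 and another 37.4% of all irf8 transcripts of plate 5. In these sums a change in the number of cells of a class and a change within cells cannot be told apart. On plates 1, 2 and 4 globin-rich wells made up 72.0%, 77.5% and 79.7% of the irf8 wells and 63.6%, 56.4% and 71.5% of the standard control wells, and MYB-positive wells 8.80%, 8.45% and 3.50% against 14.6%, 12.8% and 13.9%.

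Within globin-rich wells gpx1a and PRDX1 fell and GPX4 rose in irf8 morphants. Of the 8 members 1 was called higher and 2 lower, against 7.61% of the 4138 genes tested (3.14% higher and 4.47% lower). The median over the members was -0.28 on the log2 scale, and over all genes 0.04.

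**Figure D3:**
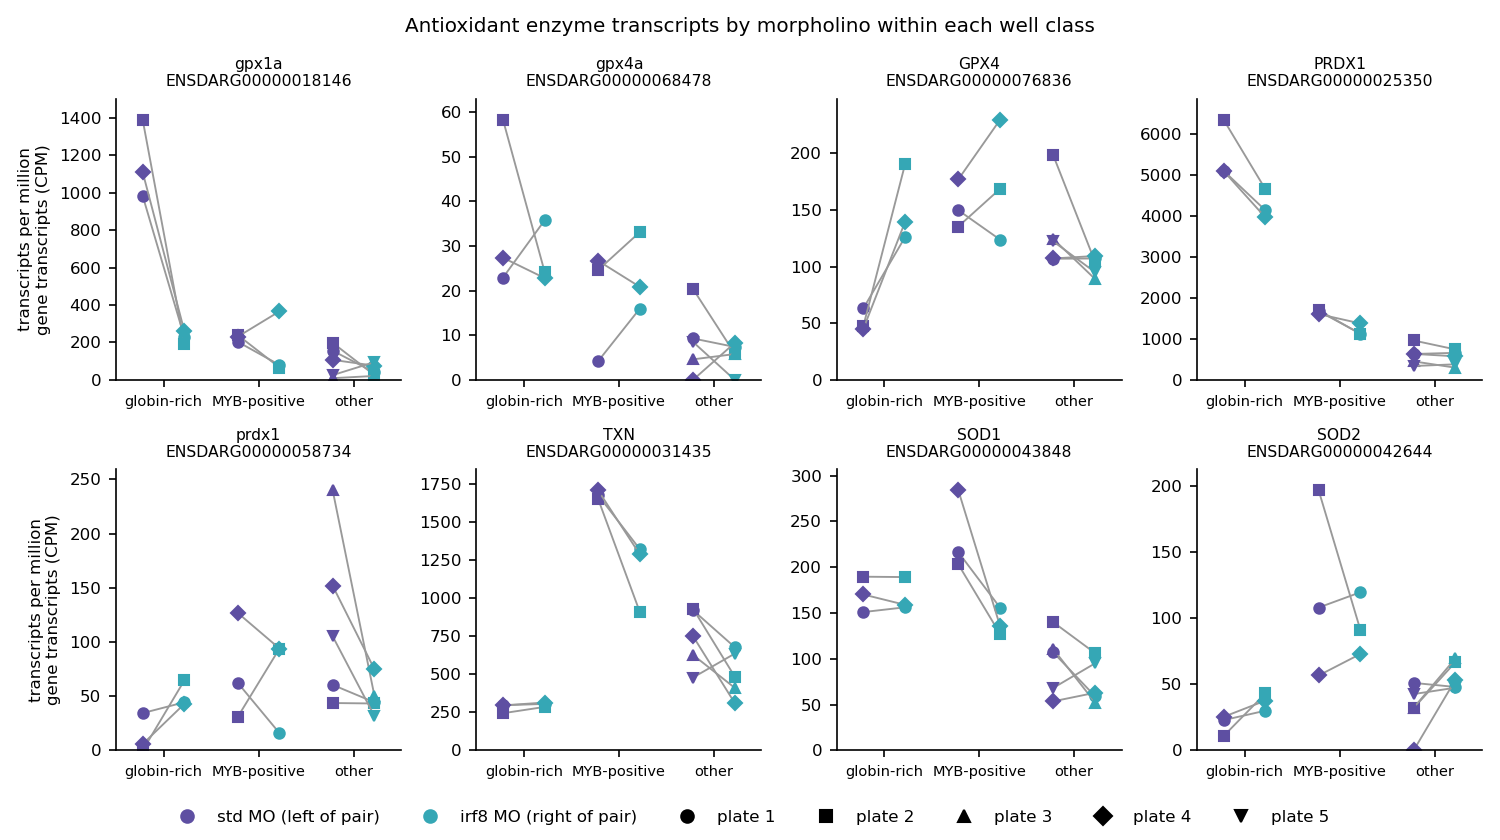
CPM (linear axis from 0) of each member in standard control (left of each pair) and irf8 (right) wells within each class, with lines joining the sums of 1 plate; globin-rich and MYB-positive wells are shown for plates 1, 2 and 4, other wells for all 5. In globin-rich wells gpx1a lies at 983 to 1390 in standard controls and 192 to 259 in irf8 morphants.

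gpx1a had 983, 1390 and 1110 CPM in the globin-rich wells of standard controls and 227, 192 and 259 CPM in those of irf8 morphants. The groups were far apart on every plate, and the lowest standard control sum was above all irf8 sums. The level was 6.43-fold lower in irf8 morphants (log2 fold change -2.68, SE 0.22, edgeR adjusted p = 0.00442), and it passed in all 15 alternatives, between -2.88 and -2.27. After thinning to 1000 transcripts, 64.6%, 66.7% and 60.2% of standard control globin-rich wells had a gpx1a transcript, against 14.4%, 22.7% and 31.6% of irf8 globin-rich wells. Without thinning these shares were 86.5%, 84.8% and 92.5% against 57.8%, 53.6% and 70.2%, and the other wells of the same plates, of both morpholinos together, had 7.02%, 16.1% and 6.98% after thinning and 33.3%, 39.3% and 39.5% without. Over all 5 plates and both morpholinos the median depth was 5224 transcripts in globin-rich wells and 5435 in other wells. On plates 1, 2 and 4 the medians of other wells were 5790, 6891 and 3955 in standard controls and 6329, 11688 and 11284 in irf8 morphants. Those of globin-rich wells were 4168, 3752 and 4453 against 6008, 5905 and 7985. The shares without thinning are thus not at equal depth. No single well gave more than 10.8% of a sum's gpx1a transcripts.

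Several properties of the globin-rich wells moved with the morpholino. Those of irf8 morphants had a median hemoglobin share of 51.6%, 49.9% and 46.6% against 56.4%, 57.3% and 52.5%, more transcripts (medians of 6008, 5905 and 7985 against 4168, 3752 and 4453) and a larger share of further erythroid markers (2.75%, 3.05% and 2.45% against 1.83%, 2.29% and 2.11%). Of 12 marker lists 5 took a larger share in irf8 morphants on each of the 3 plates and 2 a smaller one. The marker shares are of totals with hemoglobin in them. Hemoglobin took 39.8%, 41.6% and 36.4% of the irf8 sums and 42.8%, 52.4% and 41.8% of the standard control sums. Whether the lists keep these directions with hemoglobin left out of the total was not tested. HSPC markers took 0.178%, 0.12% and 0.14% against 0.12%, 0.0711% and 0.129%, and muscle markers 0.186%, 0.125% and 0.448% against 0.0683%, 0.062% and 0.336%. The cartilage and lymphoid lists were higher too, while epidermal markers took 0.152%, 0.309% and 0.555% against 1.247%, 0.596% and 0.589% and macrophage markers at most 0.00143% against at least 0.00182%. The lymphoid list took 0.00344%, 0.00241% and 0.00272% against 0.000382%, 0.00182% and 0.00254%. The sums held 274352 to 1139630 transcripts, so the lymphoid and macrophage shares rest on few transcripts. They do not show a gain of lymphoid RNA or a loss of macrophage RNA. The part of these properties in the gpx1a level was not tested. In wells of 50% or more hemoglobin it had 1264, 1461 and 1450 CPM in standard controls and 361, 277 and 378 CPM in irf8 morphants, and in wells of 30% to 50% it had 1641, 1237 and 1395 CPM against 182, 189 and 311 CPM. In wells of 10% to 30% it had 399 and 474 CPM on plates 1 and 4 in standard controls and 126 and 109 CPM in irf8 morphants. In the first and second part of each morpholino's wells by well number gpx1a had 858 to 1239 and 1096 to 1570 CPM in standard controls and 195 to 271 and 187 to 242 CPM in irf8 morphants.

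**Figure D4:**
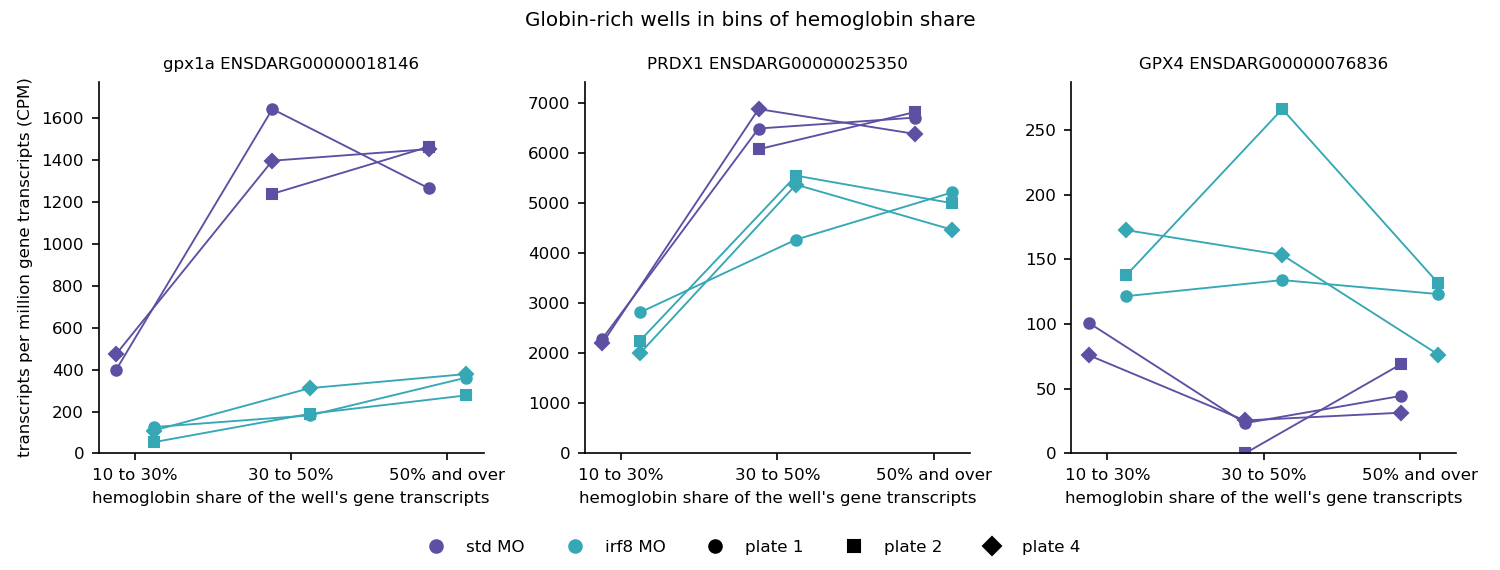
CPM (linear axis from 0) of gpx1a, PRDX1 and GPX4 in globin-rich wells by hemoglobin share of the well, with 1 line per plate and morpholino; the standard control bin of 10% to 30% on plate 2 held 1 well and is not shown. gpx1a is lower in irf8 morphants in each bin shown, and in the bins from 30% so is PRDX1 on each plate.

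PRDX1 had 5096, 6341 and 5091 CPM in standard control globin-rich wells and 4133, 4646 and 3959 CPM in those of irf8 morphants. The groups did not overlap, and the level was 1.63-fold lower in irf8 morphants (log2 fold change -0.70, SE 0.11, edgeR adjusted p = 0.0207). In wells of 50% or more hemoglobin it had 6700, 6810 and 6376 CPM against 5209, 4993 and 4463 CPM, while in wells of 10% to 30% it had 2290 and 2200 CPM against 2813 and 1996 CPM on plates 1 and 4, where the groups overlapped. The call was lost with DESeq2 (adjusted p = 0.0582), without the plate as a block (edgeR adjusted p = 0.0969), without plate 1 (0.108) and without plate 4 (0.0901). Within a plate, PRDX1 also differed between the first and second part of a morpholino's wells: on plate 1 it had 3733 and 4597 CPM in irf8 morphants and 4580 and 5562 CPM in standard controls, so that the second irf8 part was level with the first standard control part.

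GPX4 had 63.1, 47.4 and 45.0 CPM in standard control globin-rich wells and 126, 191 and 140 CPM in those of irf8 morphants. The groups did not overlap, and GPX4 was 2.28-fold higher in irf8 morphants (log2 fold change 1.19, SE 0.25, edgeR adjusted p = 0.0394). The standard control sums rested on 33, 13 and 23 transcripts, of which a single well on plate 1 gave 12. The call was kept without the well of most gene transcripts in each sum (edgeR adjusted p = 0.026), which need not be the well with most GPX4 transcripts. It was lost with DESeq2 (adjusted p = 0.0588), with globin-rich wells counted from 5% hemoglobin (edgeR adjusted p = 0.105) and without any 1 plate (edgeR adjusted p 0.0801 to 0.214).

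The remaining members did not pass in globin-rich wells. prdx1 had 18, 0 and 3 transcripts in standard control sums and 31, 51 and 49 in irf8 sums (log2 fold change 1.53, SE 0.70, edgeR adjusted p = 0.246). SOD2 had 22.9, 10.9 and 25.4 CPM against 30.1, 43.2 and 37.7 CPM (0.51, SE 0.37, edgeR adjusted p = 0.465). gpx4a had 22.9, 58.3 and 27.4 CPM against 35.8, 24.1 and 22.8 CPM (-0.62, SE 0.44, edgeR adjusted p = 0.442), and SOD1 had 151, 190 and 170 CPM against 156, 189 and 159 CPM (-0.35, SE 0.18, edgeR adjusted p = 0.289). TXN had 297, 244 and 296 CPM against 305, 286 and 315 CPM (-0.21, SE 0.15, edgeR adjusted p = 0.456). Its direction depends on the scale: it was higher in irf8 morphants by CPM on 3 of 3 plates, but lower in the fit and as CPM with hemoglobin left out of the total (507, 490 and 495 against 519, 513 and 508). Over all genes in this comparison the plain log2 ratio of CPM was higher than the fitted value by a median of 0.345.

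Of the other redox list 24 genes were tested here. Against 3.14% higher and 4.47% lower over all genes, 0 were called higher and 1 lower. This was fth1a, with 16800, 22500 and 18300 CPM in standard controls and 14620, 16280 and 13920 CPM in irf8 morphants (log2 fold change -0.69, SE 0.12, edgeR adjusted p = 0.0228). The list median was -0.01.

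In MYB-positive wells 0 of 7 members tested were called between the morpholinos, as were 0 of 2969 genes (0%), with 348 genes at an unadjusted p under 0.05 and 13 called by DESeq2. The irf8 sums held 11, 12 and 5 wells and the standard control sums 22, 15 and 18. TXN had 1678, 1654 and 1709 CPM in standard controls and 1322, 910 and 1288 CPM in irf8 morphants, with no overlap (log2 fold change -0.61, SE 0.21, edgeR adjusted p = 0.37). SOD1 had 216, 203 and 284 CPM against 156, 127 and 136 CPM, also with no overlap (-0.79, SE 0.30, edgeR adjusted p = 0.37), and PRDX1 had 1677, 1699 and 1605 CPM against 1128, 1121 and 1376 CPM (-0.54, SE 0.21, edgeR adjusted p = 0.383). With every well thinned to 1000 transcripts the log2 fold change was instead -0.01 for TXN and 0.39 for PRDX1. gpx1a had 204, 240 and 231 CPM in standard controls and 79.9, 66.3 and 366 CPM in irf8 morphants. On plate 4 a single well gave 28 of the 35 irf8 transcripts of gpx1a, and without that plate gpx1a was called (-1.72, edgeR adjusted p = 0.0265, against -0.88 and 0.551 with it). SOD2, prdx1 and GPX4 had log2 fold changes of -0.36, -0.24 and 0.07 (SE 0.41, 0.63 and 0.32), and gpx4a had too few transcripts to be tested. Neutrophil markers took 0.125%, 0.309% and 3.33% of the irf8 sums and 0.666%, 0.00246% and 0.843% of the standard control sums, and their part in these values was not tested.

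In other wells 0 of 7 members tested were called over the 5 plates, as were 0 of 3809 genes (0%), with 199 genes at an unadjusted p under 0.05 and 20 called by DESeq2. TXN had 921, 932, 628, 751 and 479 CPM in standard controls and 678, 485, 411, 311 and 636 CPM in irf8 morphants. It was lower on 4 of 5 plates but far from the threshold (log2 fold change -0.44, SE 0.26, edgeR adjusted p = 0.879). prdx1 had 43.7 to 240.0 CPM in standard controls and 31.7 to 74.9 CPM in irf8 wells, lower on each plate by CPM (-0.89, SE 0.45, edgeR adjusted p = 0.879). gpx1a had 156, 198, 9.22, 107 and 25.6 CPM against 40.7, 25.6, 21.3, 76.0 and 95.0 CPM, lower on plates 1, 2 and 4 and higher on plates 3 and 5 (-0.54, SE 0.78, edgeR adjusted p = 0.913). The remaining 4 members tested had log2 fold changes of -0.24 to 0.99, the highest for SOD2 (SE 0.63, edgeR adjusted p = 0.879). A single well gave 11.9% to 53.9% of the transcripts of each of these sums, the highest share in the irf8 wells of plate 5.

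The difference between the morpholino effects in globin-rich and other wells was tested itself on plates 1, 2 and 4. It was called for 0 of 8 members and 0 of 6320 genes (0%), with 446 genes at an unadjusted p under 0.05. For gpx1a it was -1.17 on the log2 scale (SE 0.85, edgeR adjusted p = 0.819), for PRDX1 -0.87 (SE 0.44, edgeR adjusted p = 0.734) and for GPX4 1.22 (SE 0.59, edgeR adjusted p = 0.724). The lower gpx1a level in irf8 morphants is thus not shown to be particular to globin-rich wells.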

How the data were processed

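The authors deposited estimated counts per gene and well: the molecular barcodes of each gene and well were counted and corrected for collisions, and were not scaled for depth. Undoing the correction returned whole numbers for 100% of the values (tolerance 1e-06). The submitters' processing notes name BWA, Seurat and GRCz11. The counter and the annotation are not given in the sources used here. Symbols came from a name table that matched 18186 of 23628 IDs, and no sequences or coordinates were used. Spike-ins (6.31% of kept wells' transcripts) were left out. No doublet caller was run, since cells were sorted singly into wells.

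Counts of kept wells were summed per plate and class, or per plate and morpholino over all kept wells or within a class (class sums of at least 5 wells), and rounded. They were tested with edgeR 4.0.16 (filterByExpr, TMM, quasi-likelihood) in R 4.3.3 with the plate as block, which the labels give, and Benjamini-Hochberg adjustment over all genes tested. DESeq2 1.42.0 was an alternative. The deviations of the standard control and irf8 sums of a plate correlated by 0.212, 0.328, 0.349, 0.323 and 0.127 for plates 1 to 5.

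Named genes were all members, up to 8 redox genes per comparison by smallest p among those called (3 where none was), and genes among the 3 most like each member, of which 1 is not reported here. Members, lists and tests were chosen with earlier results of these data known. Alternatives covered normalization, tool, gene and well filters, thinning, large wells, hemoglobin in the total, class boundaries, the block and each plate left out. Leaving out the largest well of each sum, by its total of gene transcripts, was added after seeing the data.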

Additional observations from a re-analysis of the deposited data

Results flagged for a closer look

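GPX4 in the other wells of standard controls had 198.2 CPM on plate 2, apart from the remaining plates (107.0, 107.2, 122.3 and 124.4 CPM). Its gap to the next value was 0.809 of the range, above Dixon's critical value of 0.71 for 5 samples. It was 1 of 40 groups of 5 plates that could be examined in this way, of which chance alone would give about 2.0.

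TXN moved in opposite directions between morpholinos in the blood classes by CPM. The mean log2 ratio of irf8 to standard control over plates 1, 2 and 4 was 0.119 in globin-rich wells, higher on 3 of 3 plates, and -0.538 in MYB-positive wells, lower on 3 of 3 plates. The difference between these ratios was not tested. With hemoglobin left out of the total the ratios were -0.046 (lower on 3 of 3 plates) and -0.524, so the opposition was seen only with hemoglobin in the total.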

How the results depend on the processing

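Members called higher or lower over all comparisons had 193 alternative values, of which 162 kept direction and call, 31 kept direction only and 0 reversed. PRDX1 and gpx1a in globin-rich against other and against MYB-positive wells, and gpx1a between morpholinos in globin-rich wells, passed in every alternative. Among uncalled values 597 kept direction and call, 17 came past the threshold and 56 reversed. The causes were not tested.

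Of the 8 members, the number called with 1 plate left out was 2 to 4 for globin-rich against other wells, 0 to 0 for MYB-positive against other, 2 to 4 for globin-rich against MYB-positive, 1 to 2 between morpholinos in globin-rich wells and 0 to 1 in MYB-positive wells. For MYB-positive against other wells it was 0 with RLE size factors, DESeq2, 2000 transcripts per well or thinning (4 members tested). It was 2 without the gene filter, with MYB-positive from 2 transcripts or without the largest well. With sums per plate, morpholino and class (7 members tested) it was 2 as well, and 3 without the top 2% of wells. Between morpholinos it was 1 over all kept wells without the gene filter or with thinning (gpx1a, of 5 members tested when thinned), and 1 in globin-rich wells with DESeq2.

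Reversals concerned uncalled members. For globin-rich against other wells prdx1 was 0.058 with RLE, 0.081 with DESeq2, 0.037 without the filter, 0.072 from 2000 transcripts, 0.147 without hemoglobin, 0.754 with globin-rich from 20% and 0.039 with MYB-positive from 2 (plates left out -0.481 to 0.761). SOD2 was 0.07 without the top 2%, 0.44 from 20%, 0.049 with sums per morpholino and 0.031 without the largest well (plates left out -0.316 to 0.184). For MYB-positive against other wells prdx1 was 0.051 without hemoglobin, 0.192 from 20% and 0.023 with MYB-positive from 2 (plates left out -0.271 to 0.07), and GPX4 was -0.014 from 5%. For globin-rich against MYB-positive wells prdx1 was -0.06 without the top 2%, -0.019 from 5% and -0.015 with sums per morpholino (plates left out -0.21 to 0.748).

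Between morpholinos over all kept wells GPX4 was 0.034 with RLE, 0.059 with DESeq2, 0.018 without the filter, 0.696 thinned, 0.087 without the top 2% and 0.009 without hemoglobin (plates left out -0.199 to 0.194), and prdx1 -0.543 to 0.084 with plates left out. In globin-rich wells TXN was 0.14 from 20%. In MYB-positive wells PRDX1 was 0.392 thinned, GPX4 -0.007 without the filter and -0.178 without the largest well (plates left out -0.1 to 0.331), SOD2 0.357 without the top 2% and 0.202 without the largest well (plates left out -0.613 to 0.176), and prdx1 -1.121 to 0.464 with plates left out. In other wells PRDX1 was 0.007 from 5% (plates left out -0.216 to 0.098), gpx1a -0.996 to 0.138 and SOD1 -0.524 to 0.016 with plates left out. The difference between the morpholino effects in globin-rich and other wells was -0.89 to 0.403 for gpx4a, -0.837 to 0.26 for SOD1 and -1.412 to 0.214 for SOD2 with plates left out.

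Without the plate as a replicate block, prdx1 was -0.151 for globin-rich against MYB-positive wells, GPX4 0.043 over all kept wells and PRDX1 0.044 in other wells, and PRDX1 lost its call between morpholinos in globin-rich wells (-0.73, edgeR adjusted p = 0.0969).

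Counts over all genes moved more, and the number of genes tested moved with them. For globin-rich against other wells 1145 of 8443 genes became 301 of 708 (thinned), 1787 of 22875 (no filter) and 2245 of 8911 (from 20%). With plates left out the count was 213 to 933. For MYB-positive against other they ran from 29 to 1653 around 657, and for globin-rich against MYB-positive from 350 to 2425 around 1934. Of these, the 1653 came without the filter (22875 tested) and the 350 with thinning (708 tested). Between morpholinos the counts ran from 0 to 356 over all kept wells (main 1) and 9 to 590 in globin-rich wells (main 315). They ran from 0 to 185 in MYB-positive wells and 0 to 70 in other wells (main 0 in both). For the difference between effects they ran from 0 to 90 (main 0). The 356, 590 and 70 came without the filter, with 23467, 19790 and 22024 genes tested. Depth limits gpx4a, SOD2 and prdx1 most, with 183, 483 and 545 transcripts in all kept wells.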
